A study of Homo sapiens with 18 samples.

Results

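The comparison described here is RAD21 silencing in cells whose Myc was switched on, 48 h after transfection. It sets the 2 libraries of siRAD21 OHT cells against the 3 libraries of siCtrl OHT cells, 5 of the 18 RNA-seq libraries of the study, which were chosen by these labels alone. The cells were U2OS, a line from a human bone tumour, into which a retrovirus had brought MycER, a fusion of Myc with the hormone-binding part of the estrogen receptor. All 5 cultures received 400 nM 4-hydroxytamoxifen (OHT), the ligand that activates MycER, when they were transfected. The siRAD21 cells received a pool of siRNAs against RAD21, and the siCtrl cells an siRNA against Renilla luciferase, a gene that human cells do not have. The other libraries had ethanol in place of OHT or were collected at 24 h, and they are used below where they show what is particular to OHT or to 48 h.

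Cohesin is a ring of proteins that holds sister chromatids together after DNA replication and forms chromatin loops between enhancers and promoters. RAD21 is the subunit that closes the ring between SMC1A and SMC3. Myc binds promoters and enhancers together with MAX, and it is known for driving ribosome synthesis, nucleotide synthesis and entry into S phase.

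The depth of the 5 libraries, recovered from the values, was 9647501 to 10243692 reads. The 2 siRAD21 OHT libraries differed by less than the sampling noise of their reads, with a chi-square per gene of 0.982 (z = -1.4) over 13001 genes, where the other 11 pairs of libraries had 1.037 to 3.936. Duplicate removal makes sampling noise smaller, and with that taken into account the value was 1.029 (z = 2.2), slightly above the noise. The pair was therefore counted as 1 sample, both values are given, and the spread in each test comes from the other groups of the series. The next lowest pair, siRAD21 without OHT at 24 h, had 1.037 (z = 2.8) and 1.094 (z = 6.5), and it was counted as 2 samples. The methods of the study speak of biological replicates, but no label says which libraries came from separate cultures, so p-values measure the spread between libraries, part of which may be technical.

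RAD21 mRNA was 89.1, 96.3 and 96.2 eRPKM (exonic reads scaled by transcript length and library depth) in the siCtrl OHT libraries and 11.1 and 11.1 eRPKM in the siRAD21 OHT libraries. All siRAD21 OHT values were far below all siCtrl OHT values, as the labels say. The log2 fold change was -3.02 (standard error 0.062, limma adjusted p = 8.90e-12). Fold changes are on the log2(eRPKM + 0.5) scale throughout, which understates those of genes with low levels. Duplicate removal leaves at most 2 reads per exon base, 1 on each strand, so high levels are compressed, and RAD21 reached 47.4% of this limit. With the removal undone, an alternative chosen after the data were seen, the fold change was -3.40.

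The other cohesin genes moved little. SMC1A, the partner of SMC3 in the ring, had 22.3, 22.8 and 23.1 eRPKM in siCtrl OHT and 32.4 and 31.7 eRPKM in siRAD21 OHT libraries. Its log2 fold change of 0.49 missed the threshold of 0.5 and passed it (0.50) without siRAD21 OHT replicate 2. SMC3 had a log2 fold change of 0.06, STAG1 of 0.23, STAG2 of 0.11 and the loader NIPBL of 0.16, none of them called. Of 20 cohesin genes tested, only RAD21 was called lower (5.0%, against 7.2% of all genes). Only MAU2, which loads cohesin together with NIPBL, was called higher (5.0%, against 7.8%). The log2 fold change of MAU2 was 0.55 (standard error 0.089), and 0.49 with quantile normalization.

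The labelled cell line was set against marker lists. Of 18 markers of osteosarcoma and mesenchymal cells, 12 were expressed highly enough to be tested, and their summed level was 375 to 392 eRPKM in siCtrl OHT and 397 to 400 eRPKM in siRAD21 OHT libraries. Vimentin (VIM), SPARC and THY1 made up most of it, and IBSP and TWIST1 were at 0 in all 5 libraries. The sums of 15 endothelial and blood markers were 14.4 to 16.0 and 15.5 to 16.5 eRPKM, and HBB was at 0. The sums of 16 epithelial markers, mostly KRT8 and KRT18, were 214 to 228 and 177 to 178 eRPKM, with KRT19 at 0, and those of 16 neuronal and muscle markers, mostly NEFL, were 66.9 to 69.6 and 93.2 to 93.4 eRPKM, with MYOG at 0. The part of other cell types in these differences was not tested. In bulk RNA, fewer cells of a kind and less RNA per cell cannot be told apart.

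Silencing RAD21 under active MycER moved genes in both directions in nearly equal numbers. Of 14993 genes tested, 2249 (15.0%) were called, 1169 higher (7.8%) and 1080 lower (7.2%). A gene was called when its adjusted p in limma (Benjamini-Hochberg) was below 0.05 and its log2 fold change was past 0.5. Of the called genes, 539 were past a log2 fold change of 1. The siRAD21 OHT and siCtrl OHT libraries did not overlap in 63.8% of all genes tested, so an absence of overlap alone says little here. It also adds little to a call, since 2246 of the 2249 called genes had no overlap.

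The largest falls included genes of growth factor signalling, axon guidance and cell junctions. IGFBP5, which binds insulin-like growth factors (chr2:217536828-217560272, GRCh37), had 16.2, 12.1 and 14.4 eRPKM in siCtrl OHT and 0.747 and 0.865 eRPKM in siRAD21 OHT libraries. It was the largest fall by the rule used here, which reads the called genes with at least 5 eRPKM in 1 group and no overlap (log2 fold change -3.49, standard error 0.15, limma adjusted p = 7.20e-09). SEMA3A, a secreted axon guidance cue (chr7:83585093-84122040), had 8.57, 7.97 and 9.25 eRPKM against 0.677 and 0.648 eRPKM. The libraries of the 2 groups were far apart for both genes. The forkhead factor FOXS1 had 12.3, 11.0 and 10.2 eRPKM against 0.943 and 0.927 eRPKM, a log2 fold change of -3.02 (standard error 0.12). DRD1, the dopamine D1 receptor, had 7.09, 6.18 and 4.06 eRPKM against 0.215 and 0.302 eRPKM, also -3.02. The other large falls were the noncoding RNA LINC00511 (-2.94), LCTL (-2.83), the tight junction gene CLDN1 (-2.58), the adhesion molecule L1CAM (-2.58) and NXT2 (-2.49), a partner of mRNA export factors. L1CAM was the one with a wide control group, at 25.0, 14.2 and 15.2 eRPKM against 2.35 and 2.72 eRPKM.

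The largest rises included noncoding RNAs and stress and signalling genes. LINC01164 (chr10:133604719-133622535) had 2.51, 2.39 and 2.61 eRPKM in siCtrl OHT and 20.6 and 21.4 eRPKM in siRAD21 OHT libraries, a log2 fold change of 2.84 (standard error 0.15, limma adjusted p = 3.69e-08). DCLK1, a microtubule-associated kinase (chr13:36342789-36705519), had 1.75, 1.78 and 1.63 eRPKM against 13.3 and 13.0 eRPKM, a log2 fold change of 2.62 (standard error 0.14). Every siRAD21 OHT library was several times above every siCtrl OHT library for both genes. The others were LINC00473 (2.73), the interferon-stimulated gene IFIT2 (2.50), the orphan nuclear receptor NR4A2 (2.39), the microfibril component MFAP5 (2.34), the cytokine IL24 (2.32), LINC01405 (2.30) and the p53 target TP53INP1 (2.27). The rule also puts MIR191 first (3.04), but this 92-base row held 0, 1 and 0 reads in siCtrl OHT and 5 and 5 in siRAD21 OHT libraries, and its call was lost without siCtrl OHT replicate 1 or 3 (2.75 each).

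**Figure D1:**
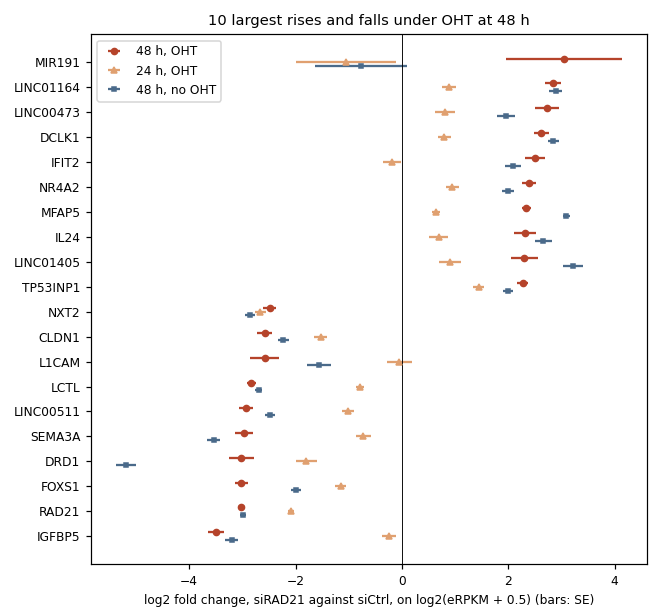
Log2 fold changes of siRAD21 against siCtrl with their standard errors for the 10 largest rises and 10 largest falls under OHT at 48 h, beside the same genes under OHT at 24 h and without OHT at 48 h. RAD21 (-3.02) and NXT2 (-2.49) were already low at 24 h (-2.09 and -2.66), whereas IGFBP5 went from -0.25 at 24 h to -3.49 at 48 h.

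Among the gene lists, that of the p53 response had the most members called in 1 direction. These genes are induced when p53, which is wild-type in U2OS cells, is stabilized. Of 37 tested, 19 were called higher (51.4%, against 7.8% of all genes) and 0 lower, 35 had a log2 fold change above 0, and the median was 0.54, against -0.002 over all genes tested. TP53INP1, which promotes p53-dependent cell death and autophagy, had 3.94, 4.16 and 4.09 eRPKM in siCtrl OHT and 21.3 and 21.8 eRPKM in siRAD21 OHT libraries (standard error of the log2 fold change 0.11, limma adjusted p = 3.03e-08). The alkaline ceramidase ACER2 (1.54), the death receptor FAS (0.92) and the membrane protein PERP (0.84) rose too. FAS had 8.0, 8.94 and 9.08 eRPKM against 16.6 and 17.2 eRPKM. Outside the naming rule, and named after their values were seen, BTG2, which slows proliferation, had 44.8, 46.8 and 46.6 against 81.6 and 82.4 eRPKM (0.83), the DNA damage sensor XPC a log2 fold change of 0.80 and ZMAT3, an RNA-binding protein, one of 0.73. The 2 best known targets were not called: CDKN1A, the inhibitor of cyclin-dependent kinases, had a log2 fold change of 0.43, and MDM2, which degrades p53, of 0.19. CDKN1A was at 57.6% of the duplicate limit, and with the removal undone it was called, at 0.61. Of 16 genes of the BCL2 family, which control the mitochondrial step of apoptosis, 2 were called higher (12.5%, against 7.8%) and 1 lower (6.25%, against 7.2%). The p53 target BBC3 rose from 23.9, 23.4 and 24.5 to 42.4 and 40.7 eRPKM (0.79), and BIK was called at 0.59. BMF fell from 2.29, 2.45 and 3.14 to 0.889 and 0.895 eRPKM (-1.16). The call of BIK was lost without siCtrl OHT replicate 1 (0.55) or 3 (0.54).

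Interferon-stimulated genes had their large rises at a few members. These genes are induced by interferon or by foreign nucleic acid and act against viruses. Of 35 tested, 9 were called higher (25.7%, against 7.8% of all genes) and 0 lower. The log2 fold change was above 0 for 25 and below 0 for 10, with a median of 0.17. IFIT2, which binds viral RNA, had 0.81, 1.07 and 0.871 eRPKM against 6.85 and 8.22 eRPKM (standard error 0.19, limma adjusted p = 9.96e-07). IFIT3 had 5.59, 5.9 and 6.26 eRPKM against 17.5 and 18.9 eRPKM, a log2 fold change of 1.54. OASL rose by 1.76 and IFI44 by 0.85 on the log2 scale. Without OHT they had 0.00 and 0.17 and were not called, whereas IFIT2 (2.08) and IFIT3 (1.89) rose there too. The siCtrl means of OASL and IFI44 were 4.6 and 12.2 eRPKM without OHT and 0.791 and 3.97 eRPKM with it. Their siRAD21 OHT means, 3.84 and 7.56 eRPKM, stayed below the siCtrl means without OHT. The other calls were smaller, such as those of the RNA sensor DDX58 (0.65) and the nuclear body protein SP100 (0.70).

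**Figure D2:**
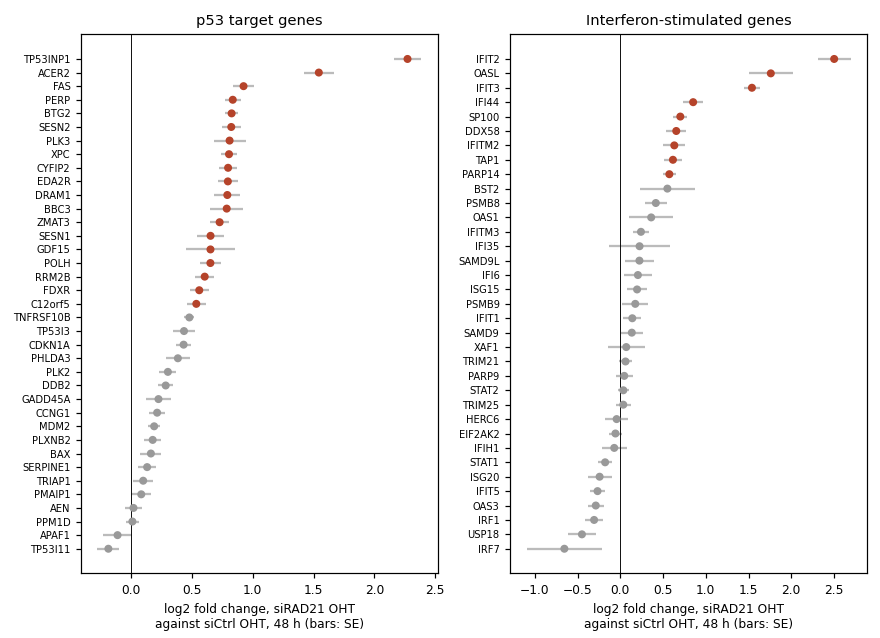
Log2 fold change of each tested p53 target (left) and interferon-stimulated gene (right) in siRAD21 OHT against siCtrl OHT at 48 h, with standard errors; red points were called and grey points were not. The p53 targets lie nearly all above 0 with 19 called, and the 9 called interferon-stimulated genes are led by IFIT2, OASL and IFIT3.

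Genes of the Myc network were led by MXD4, a repressor that competes with Myc for MAX. MXD4 had 4.21, 4.47 and 4.81 eRPKM in siCtrl OHT and 19.4 and 20.1 eRPKM in siRAD21 OHT libraries, a log2 fold change of 2.02 (standard error 0.092, limma adjusted p = 1.10e-08). MXI1, of the same repressor family, rose by 0.70, and MYCL, a Myc paralog, fell by 0.71 on the log2 scale. The other 9 of 12 network genes tested were not called, so that 25.0% were called, against 15.0% of all genes. MYC had 49.4, 43.3 and 42.0 eRPKM against 36.0 and 32.9 eRPKM (log2 fold change -0.38, limma adjusted p = 0.00242), short of the threshold on size, and reads of the MycER transgene and of MYC cannot be told apart in this row. Of 55 genes of ribosome biogenesis, 0 were called higher in limma (against 7.8% of all genes) and 1 lower (1.82%, against 7.2%). The 1 called lower at adjusted p below 0.05 and log2 past 0.5 was GRWD1, a histone chaperone of the nucleolus (-0.57). The median of the list was -0.03.

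Few genes of the replication machinery were called. Of 29 genes of origin licensing and firing, 25 had a log2 fold change below 0, with a median of -0.18, but 2 were called lower (6.9%, against 7.2% of all genes) and 0 higher. The MCM2 to MCM7 genes encode the replicative helicase. MCM2 had 67.1, 70.9 and 70.5 eRPKM against 58.5 and 59.8 eRPKM, a log2 fold change of -0.23. MCM6 had 33.3, 34.1 and 33.5 eRPKM against 34.1 and 34.0 eRPKM, and its groups overlapped. The log2 fold changes of MCM3, MCM4, MCM5 and MCM7 were -0.17, -0.24, -0.16 and 0.05, and none of the 6 was called. Of the GINS complex, which activates this helicase, GINS1 fell from 39.4, 42.9 and 43.1 to 25.9 and 24.5 eRPKM (-0.72). GINS2 was called at -0.51, a call that was lost without siCtrl OHT replicate 2 (-0.50) or 3 (-0.49) and without siRAD21 OHT replicate 2 (-0.46).

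Of 32 replisome genes, 4 were called lower (12.5%, against 7.2% of all genes) and 1 higher (3.12%, against 7.8%), with a median of -0.17. POLE3, a histone-fold subunit of DNA polymerase epsilon, fell from 74.8, 81.1 and 78.7 to 44.3 and 43.1 eRPKM (-0.83). CHAF1B, which deposits histones on new DNA, had a log2 fold change of -0.73 and the nuclease and helicase DNA2 one of -0.61, while POLD4, a small subunit of polymerase delta, rose by 0.62. CHTF18, which helps load the sliding clamp and lies outside the naming rule, was called at -0.51. Of 26 regulators of the G1/S transition, 1 was called, and it was lower (3.85%, against 7.2% of all genes). This gene, SKP2, which marks p27 for degradation, fell from 52.4, 56.7 and 58.5 to 22.8 and 21.4 eRPKM (-1.32, standard error 0.059, limma adjusted p = 1.08e-08).

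Of 51 G2/M genes, 46 were below 0 with a median of -0.18, and 4 were called lower (7.84%, close to the 7.2% of all genes). The kinetochore motor CENPE fell by 0.69 on the log2 scale. The kinetochore genes SPC24 (-0.58) and SPC25 (-0.51) and the chromosomal passenger INCENP (-0.51) were close to the threshold. Their calls were lost without siRAD21 OHT replicate 1 (SPC24, -0.46), without siCtrl OHT replicate 3 or siRAD21 OHT replicate 2 (SPC25, -0.46 and -0.47) and without siCtrl OHT replicate 1 or 2 or siRAD21 OHT replicate 2 (INCENP, -0.47, -0.49 and -0.47).

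In DNA repair, 6 of 36 genes of homologous recombination and the Fanconi pathway were called lower (16.7%, against 7.2% of all genes). In this list 1 was called higher (2.78%, against 7.8%), and the median was -0.20. The structure-specific nuclease subunit MUS81 fell from 23.5, 22.0 and 21.6 to 13.4 and 13.0 eRPKM (-0.74). RAD54B (-0.74) and the Fanconi helicase FANCM (-0.63) fell too. The helicase BLM (-0.55), the exonuclease EXO1 (-0.54) and RAD54L (-0.60), outside the naming rule, were called lower too. Among 23 genes of the ATR and ATM checkpoint, 1 was called in each direction (4.35%). The kinase ATR rose from 7.75, 8.03 and 8.83 to 13.5 and 13.1 eRPKM (0.67). RAD9A, of the checkpoint clamp, was called at -0.66 and missed the threshold without siRAD21 OHT replicate 1 (-0.47). Of 32 genes of nucleotide synthesis, 12.5% were called lower and 3.12% higher. Those lower were SHMT1, a folate enzyme (-0.91), CTPS2 (-0.70), SAMHD1, which degrades dNTPs (-0.62), and the purine enzyme PFAS (-0.52). ADSS, an enzyme of AMP synthesis, was called higher (0.57). Of 47 replication-dependent histone genes, which share near-identical sequence so that reads between them are uncertain, HIST1H2BB was called higher (1.25) and HIST1H2BG lower (-0.66). Each is 2.13% of the list, against 7.8% and 7.2% of all genes.

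Several TGF-beta and BMP genes fell by more than 1 on the log2 scale. This family of secreted ligands signals through SMAD proteins and is known for control of the matrix and of growth. Of 37 tested, 8 were called lower (21.6%, against 7.2% of all genes) and 3 higher (8.11%, against 7.8%). INHBA, which encodes the subunit of activin A, had 55.7, 60.5 and 54.9 eRPKM in siCtrl OHT and 12.5 and 12 eRPKM in siRAD21 OHT libraries (log2 fold change -2.17, standard error 0.095, limma adjusted p = 8.60e-09). TGFB2, a TGF-beta ligand, had 15.7, 15.0 and 16.5 eRPKM against 3.67 and 3.78 eRPKM (-1.94). TGFBI, a matrix protein induced by TGF-beta, fell by 1.57 on the log2 scale. Outside the naming rule, SNAI2, a repressor of epithelial genes, had a log2 fold change of -1.52 (7.45, 6.19 and 6.11 against 1.82 and 2.12 eRPKM), and SMAD6, an inhibitor of BMP signals, one of -1.24, whereas the BMP targets ID2 (0.84) and ID4 (0.85) rose. FST, a secreted inhibitor of activin, went the other way, from 13.2, 12.1 and 15.2 to 43.6 and 42.6 eRPKM (1.65). The ligand gene was thus lower and the gene of its inhibitor higher.

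Of 55 axon guidance genes, 13 were called lower (23.6%, against 7.2% of all genes) and 7 higher (12.7%, against 7.8%). Besides SEMA3A, its coreceptor NRP1 fell from 11.4, 11.5 and 12 to 3.46 and 2.9 eRPKM (-1.73), and the laminin-related cue NTN4 rose from 3.58, 3.71 and 3.47 to 12.4 and 12.6 eRPKM (1.67). The synaptic adhesion gene SLITRK6 had 137, 154 and 174 reads in siCtrl OHT and 1 read in each siRAD21 OHT library. Of 27 targets and members of the YAP and TAZ pathway, 6 were called lower (22.2%) and 1 higher: the coactivator gene WWTR1 had a log2 fold change of -1.11, the receptor kinase AXL one of -1.05, and the membrane repair gene MYOF one of 1.19. Of 29 immediate-early and MAPK-responsive genes, 5 were called lower (17.2%) and 2 higher (6.9%), with PHLDA1 (-1.24), FOSL2 (-1.14) and EGR2 (-1.11) lower and KLF2 (0.97) higher. The members of these lists moved in both directions, and their medians were -0.09, -0.07 and -0.07.

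Among 26 NF-kB targets and cytokines, 7 were called higher (26.9%, against 7.8% of all genes) and 2 lower (7.69%, against 7.2%). IL24 rose from 4.39, 4.98 and 5.23 to 27.1 and 25.3 eRPKM, and BIRC3, an inhibitor of apoptosis, from 10.1, 11.5 and 9.79 to 20.5 and 20.6 eRPKM. TNFAIP6, a hyaluronan-binding protein, had 51, 63 and 81 reads in siCtrl OHT and 0 and 3 reads in siRAD21 OHT libraries, so that its fall is clear and its size is not. CSF2, a growth factor of myeloid cells, was lower too, with 23, 15 and 9 reads against 1 and 5. Of 40 genes of the ATF4 and unfolded protein response, 5 were called higher (12.5%, against 7.8% of all genes) and 0 lower. Among the 5 were EDEM1, which clears misfolded glycoproteins (0.83), SESN2 (0.82) and DDIT4 (0.82), which restrain mTORC1. GDF15 was called at 0.65 and was not called without siCtrl OHT replicate 3 (0.52).

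The matrix lists were split. Of 25 collagen genes, COL13A1 rose (1.25) and COL26A1 was called lower (-0.56), a call that was lost when any of the siCtrl OHT libraries was left out (-0.53 to -0.59). Without siCtrl OHT replicate 1 the median of the collagens was 0.10 instead of -0.06. Of 35 matrix proteases and related genes, 6 were called lower (17.1%, against 7.2% of all genes) and 4 higher (11.4%, against 7.8%). MMP3, stromelysin, rose from 16.3, 19.3 and 16.9 to 51.1 and 50.9 eRPKM (1.52), and ADAMTS15 fell from 1.82, 1.28 and 1.73 to 0.292 and 0.197 eRPKM (-1.50). ADAMTS6 had a log2 fold change of -0.90 and ADAMTS12 one of 0.79. Of 23 integrins and laminins, 5 were called higher (21.7%), among them the leukocyte integrin ITGB2 (1.05, at most 1.58 eRPKM), LAMA1 (0.87), LAMB2 (0.65) and ITGA1 (0.64), and 3 lower (13.0%).

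Of the remaining lists, those of cholesterol, glycolysis and housekeeping had few calls, and the marker lists had larger shares. Of 25 genes of cholesterol synthesis and uptake, INSIG1 (-1.03) and MSMO1 (-0.55) were called lower (8.0%, against 7.2% of all genes). PMVK was called higher (0.81), which is 4.0%, against 7.8%. The call of MSMO1 was lost with quantile normalization (-0.50). Of 24 genes of glycolysis, only the glucose transporter SLC2A3 was called, and it was higher (0.93), which is 4.17% of the list. Among 15 housekeeping genes, only the transferrin receptor TFRC was called (6.67%), higher, from 64.1, 68.2 and 69.1 to 107 and 104 eRPKM (0.65). Of the 12 mesenchymal markers tested, S100A4 (0.71) and SPP1 (0.65) were called higher (16.7%, against 7.8% of all genes). In the same list ALPL (-0.95), RUNX2 (-0.85) and CDH11 (-0.62) were called lower (25.0%, against 7.2%). SNAP25 (1.09) and MAP2 (0.71), of the 8 neuronal and muscle genes tested, were called higher (25.0%). ITGAM (0.60), of the 3 endothelial and blood genes tested, was called with at most 2.18 eRPKM.

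Clustered protocadherins and HOX genes were called in both directions. Of 21 clustered protocadherins, neuronal adhesion genes read from alternative promoters, 9 were called lower (42.9%, against 7.2% of all genes) and 3 higher (14.3%, against 7.8%). PCDHB8 fell from 5.19, 4.63 and 4.42 to 1.49 and 1.69 eRPKM (-1.33), and PCDHB2 rose from 2.33, 2.2 and 1.93 to 7.86 and 7.35 eRPKM (1.61). The alpha and gamma members share their last exons, so reads between them, PCDHA12 (1.51) and PCDHGB1 (-0.97) among them, are uncertain. Of 28 HOX genes, which set position along the body axis, 6 were called lower (21.4%), led by HOXD11 (-1.55), HOXC11 (-1.06), HOXB3 (-0.97) and HOXC6 (-0.83), and 4 higher (14.3%). Of 9 epithelial genes tested, 6 were called lower (66.7%) and 0 higher. CLDN4 had 23.6, 24.2 and 23.1 against 11.4 and 12.9 eRPKM (-0.94) and OCLN was at -0.86, both of tight junctions. KRT14 (-1.65) and KRT5 (-1.08), keratins of basal cells, held at most 43 reads in any of the 5 libraries, and EPCAM (-0.66) and CDH1 (-0.58), both of cell adhesion, complete the 6. The library kit is not known to mark the strand, so for overlapping genes on opposite strands the reads cannot be told apart.

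Called genes had neighbours called the same way somewhat more often than the genes tested. The nearest tested gene with no overlap was itself called higher for 11.6% of 1135 genes called higher, against 7.8% of all genes with such a neighbour, and called lower for 11.3% of 1065 genes called lower, against 7.32%. It was called in the other direction for 6.78% and 6.38%. Long noncoding RNAs made up 7.44% of the genes called higher, 3.24% of those called lower and 4.75% of all genes tested. These shares are descriptions and carry no test.

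The same silencing without OHT, on 5 other libraries of the same MycER cells at 48 h, shows how much of the response was also called without OHT. There, 3559 genes were called (23.7%), 1881 higher (12.5%) and 1678 lower (11.2%). Over all 14993 genes, the log2 fold changes with and without OHT correlated at r = 0.714 (across genes, which are not independent replicates). Of the 1169 genes higher with OHT, 885 (75.7%) were also higher without it, which is 47.0% of those higher without OHT. Of the 1080 lower with OHT, 742 (68.7%) were lower without it, 44.2% of those lower without OHT, and 5 genes were called in opposite directions. Genes called with OHT had similar medians without it, 0.73 against 0.77 for the higher and -0.74 against -0.70 for the lower ones. Genes called without OHT had smaller medians with it, 0.51 against 0.77 for the higher and -0.46 against -0.74 for the lower ones. Each set was picked by its effect in 1 condition, so these medians depend in part on the choice.

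The difference between the effects itself was tested as an siRNA by OHT interaction. It was called for 825 genes (5.5%), 408 with a more positive effect under OHT (2.72%) and 417 with a more negative one (2.78%). The 408 had a median effect of -0.10 with OHT and -0.83 without it, and the 417 had -0.10 with OHT and 0.69 without it. Both sets were picked by the difference of these effects, so the gaps between the medians follow in part from the choice. The count was 560 without siRAD21 replicate 1 of the 48 h libraries, and 518 when the 48 h groups alone were fitted.

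**Figure D3:**
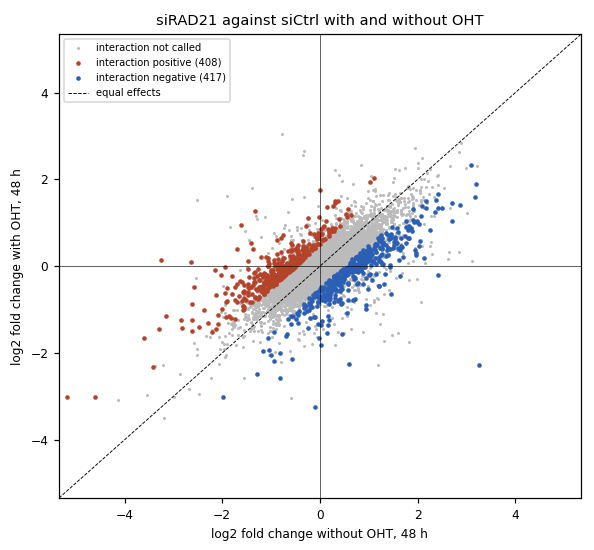
Each point is 1 of 14993 genes, with the log2 fold change of siRAD21 against siCtrl without OHT on the x axis and with OHT on the y axis, both at 48 h. The 408 genes with a positive interaction (red) lie above the dashed line of equal effects, mostly where the effect without OHT is negative, and the 417 with a negative one (blue) lie below it, mostly where it is positive.

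Replication genes were called with a positive interaction in part, against 2.72% of all genes tested. Over all genes, 11.2% were called lower without OHT and 7.2% with it. In origin licensing and firing, 18 of 29 genes were called lower without OHT and 2 with it, and the interaction was called positive for 11. In the replisome these counts were 22, 4 and 13 of 32, and in recombination and the Fanconi pathway 23, 6 and 10 of 36. MCM6 had 26.5, 26.2 and 28.1 eRPKM in siCtrl and 14.9 and 14.7 eRPKM in siRAD21 libraries without OHT, and the groups with OHT overlapped, so its interaction was 0.86 (standard error 0.07, limma adjusted p = 2.70e-05). The interactions of MCM2 and MCM4 were 0.61 and 0.61, those of MCM3 (0.49), MCM5 (0.40) and MCM7 (0.26) were not called, GINS2 had 0.74, CHAF1B 0.83 and SHMT1 0.67. For the G2/M list the interaction was called for 1 of 51 genes, although 20 were called lower without OHT and 4 with it. It was above 0 for 49 of the 51, with a median of 0.25, against 0.016 over all genes tested. The median effects of this list were -0.43 without OHT and -0.18 with it. In ribosome biogenesis, 0 of 55 had a called interaction in limma (adjusted p below 0.05), and in ATF4 and the unfolded protein response 11 of 40 had a positive one. Among 35 interferon-stimulated genes it was called positive for 2, OASL (1.76) and IFI44 (0.69), and negative for 0.

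**Figure D4:**
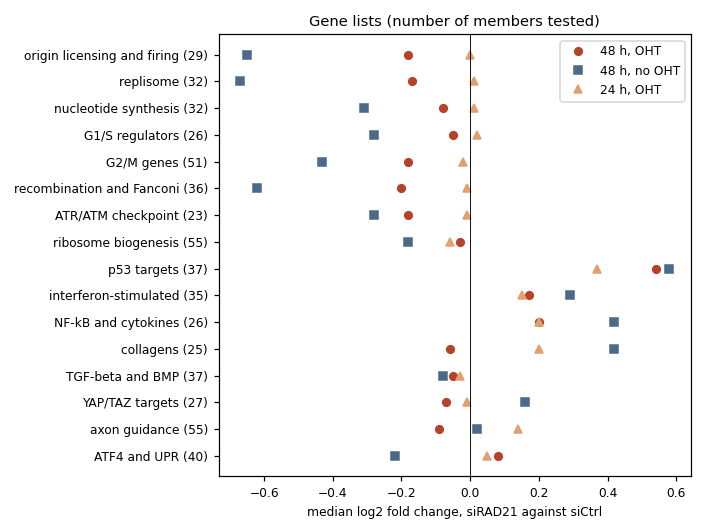
Median log2 fold change of siRAD21 against siCtrl over the tested members of 16 gene lists, under OHT at 48 h, without OHT at 48 h and under OHT at 24 h. The replication lists sit near -0.65 without OHT and near -0.18 with it, while the p53 targets sit at 0.58 and 0.54.

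The 5 largest positive interactions were secreted, signalling and lipid genes. CXCL14, a chemokine, had 13.9, 14.9 and 17.3 eRPKM in siCtrl OHT and 16.9 and 17.0 eRPKM in siRAD21 OHT libraries, but 13.7, 13.4 and 16.9 against 1.25 and 0.944 eRPKM without OHT. Its groups overlapped with OHT and were far apart without it, an interaction of 3.39 (standard error 0.18, limma adjusted p = 7.21e-07). RGS16, which ends G protein signals, rose with OHT (1.27) and fell without it (-1.32), an interaction of 2.59. It was called in opposite directions, from 22.5, 23.2 and 19.8 to 54.0 and 52.2 eRPKM with OHT and from 12.9, 12.9 and 9.68 to 4.29 and 4.45 eRPKM without. DRD1 had an interaction of 2.17, while its control level was itself 33.5, 32.1 and 25.0 eRPKM without OHT and it was near 0.3 eRPKM in every siRAD21 library at 48 h. The interaction of DRD1 was not called with voom on recovered reads (2.01), an alternative chosen after the data were seen. The lipase LPL had 2.10 and the lipid transporter MFSD2A 2.09.

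The interactions of TGF-beta and BMP genes went both ways, with 6 called positive and 5 negative of 37 and a median of 0.01. Over all genes tested, 2.72% were called positive and 2.78% negative. INHBA fell by 2.17 with OHT and by 0.94 without it on the log2 scale, an interaction of -1.23 (standard error 0.12, limma adjusted p = 1.08e-04). Those of TGFB2 and TGFBI were -0.89 and -0.88, those of SNAI2 and ID4 were positive (0.68 and 0.83), and those of FST (0.43), SMAD6 (0.44) and ID2 (0.53) were not called. Outside this list, FOXS1 had -1.03. MXD4 was on the positive side: it rose from 15.0, 14.0 and 14.6 to 30.8 and 33.5 eRPKM without OHT (1.12) and by 2.02 with it, an interaction of 0.91. The 5 most negative by rule were the short rows MIR554 (-2.85), MIR2053 (-2.62), MIR5702 (-2.09), MIR3936 (-1.86) and MIR196A1 (-1.83), with 0 to 26 reads per library with OHT. The level of MIR2053 under OHT rested on 1 library, since its siRAD21 effect was called at -1.69 without siRAD21 OHT replicate 1 and at 1.28 without replicate 2. Without siRAD21 OHT replicate 1 MIR554 was no longer called (-1.41), without siRAD21 OHT replicate 2 neither was MIR196A1 (-1.23), which was also not called without siRAD21 replicate 2 (-1.46). MIR5702 was not called without siCtrl OHT replicate 3 (-1.89), siCtrl replicate 2 (-2.14) or either siRAD21 library of 48 h (-2.31 and -1.88). Among rows of at least 200 exon bases, a limit chosen after the values were seen, CCL24, PSG5, ALPP, TENM2 and KCNA1 came first. TENM2, a neuronal adhesion gene, had 19.0, 12.1 and 12.5 against 4.45 and 4.71 eRPKM with OHT and 29.8, 20.0 and 25.2 against 30.1 and 25.0 eRPKM without. Its groups overlapped without OHT and not with it, an interaction of -1.69 (standard error 0.29, limma adjusted p = 0.00309).

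Promoters of these genes were searched for 4 short motifs on both strands, in the 300 bases before the start of the canonical transcript (GENCODE on GRCh37), which could be read for 92.8% of the genes tested. Motifs, window and the genes shown were chosen after the values were seen. They were the E-box bound by Myc and MAX (CACGTG), 4 words of the E2F motif of cell cycle genes (TTTGGCGC, TTTCCCGC, TTTGCCGC and TTTCGCGC, which can overlap each other), the CHR element of G2/M genes (TTTGAA) and the CCAAT box. The E2F words were in 37 of 387 promoters with a positive interaction (9.56%), in 5 of 397 with a negative one (1.26%), in 4.92% of all 13911 tested and in 4.26% of all 19866 protein-coding promoters. For the E-box the shares were 9.3%, 9.07%, 9.99% and 8.88%, in the same order. For CHR they were 10.6%, 8.56%, 10.1% and 12.6%, and for CCAAT 45.0%, 28.7%, 37.5% and 37.9%. In the comparison with OHT alone, the E2F words were in 3.22% of the promoters of genes called higher and 5.16% of those called lower, and the E-box in 9.29% and 8.89%. A match says only that the letters are there.

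The promoters of 4 genes with a positive interaction are printed 5′ to 3′ on the strand of the gene, to show where the motifs stand, with matches to the E2F words (MCM6 and GINS2) or the E-box (MCM2 and MXD4) in capitals. MCM6 lies at chr2:136634014-136634313 (minus strand) and holds 4 overlapping matches in 2 blocks, GINS2 at chr16:85722561-85722860 (minus), MCM2 at chr3:127316954-127317253 (plus) and MXD4 at chr4:2263837-2264136 (minus). The promoters of GINS1, POLE3 and CHAF1B, also searched, hold neither motif.
MCM6: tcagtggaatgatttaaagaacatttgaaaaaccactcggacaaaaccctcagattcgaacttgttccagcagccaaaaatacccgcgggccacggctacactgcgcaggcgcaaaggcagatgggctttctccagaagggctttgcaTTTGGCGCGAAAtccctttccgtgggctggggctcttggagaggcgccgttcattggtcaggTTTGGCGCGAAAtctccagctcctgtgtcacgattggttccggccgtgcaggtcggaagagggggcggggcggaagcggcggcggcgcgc
GINS2: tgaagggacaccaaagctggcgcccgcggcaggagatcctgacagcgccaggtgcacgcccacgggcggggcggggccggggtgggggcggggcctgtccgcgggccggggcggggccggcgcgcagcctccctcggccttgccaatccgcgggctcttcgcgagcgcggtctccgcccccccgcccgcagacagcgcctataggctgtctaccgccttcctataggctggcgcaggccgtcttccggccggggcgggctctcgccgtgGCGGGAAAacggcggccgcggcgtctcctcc
MCM2: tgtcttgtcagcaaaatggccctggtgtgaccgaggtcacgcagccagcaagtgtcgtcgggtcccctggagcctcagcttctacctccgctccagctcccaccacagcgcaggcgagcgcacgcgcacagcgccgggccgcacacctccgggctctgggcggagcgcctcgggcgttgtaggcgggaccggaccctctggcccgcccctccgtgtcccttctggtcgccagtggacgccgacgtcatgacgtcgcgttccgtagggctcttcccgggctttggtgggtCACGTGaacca
MXD4: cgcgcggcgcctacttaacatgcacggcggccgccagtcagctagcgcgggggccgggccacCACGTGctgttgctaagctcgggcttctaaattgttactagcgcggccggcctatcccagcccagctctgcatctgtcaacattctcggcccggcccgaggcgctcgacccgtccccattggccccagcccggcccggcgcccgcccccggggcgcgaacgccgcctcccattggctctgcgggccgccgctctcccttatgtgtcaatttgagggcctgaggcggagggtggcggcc

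At 24 h under OHT, on 4 other libraries, RAD21 was already lower (66.4 and 71.0 against 15.8 and 15.5 eRPKM, log2 fold change -2.09), and 959 genes were called (6.4%), 553 higher (3.69%) and 406 lower (2.71%). Of the genes higher at 48 h, 384 (32.8%) were higher at 24 h, which is 69.4% of those higher at 24 h. Of the genes lower at 48 h, 286 (26.5%) were lower at 24 h, 70.4% of those lower at 24 h. Most genes called at 48 h, those called at 24 h included, had the same sign at 24 h. The share was 94.4% of the genes higher and 86.3% of those lower at 48 h, with smaller medians of 0.39 and -0.29 at 24 h. Among the p53 targets 7 of 37 were already called higher at 24 h (median 0.37), and in the lists of origin licensing and of the replisome 0 were called by limma at the same thresholds.

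The 48 h minus 24 h difference under OHT was called for 651 genes (4.34%), 254 positive (1.69%) and 397 negative (2.65%), and for 423 without siCtrl OHT replicate 1 of the 24 h libraries. IFIT2 had 0.651 and 0.573 eRPKM in siCtrl OHT and 0.541 and 0.414 eRPKM in siRAD21 OHT libraries at 24 h. It rose at 48 h and had no call at 24 h, a difference of 2.69 (standard error 0.25, limma adjusted p = 6.69e-05). The other large positive differences were those of INSL4, a peptide of the relaxin family (2.14), and MMP3 (2.00). INSL4 rested on few reads and was not called without either 24 h siCtrl OHT library (2.01 and 2.28), without siRAD21 OHT replicate 1 of 24 h (1.76) or without siCtrl OHT replicate 1 or 3 of 48 h (1.94 and 2.15).

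The most negative differences were those of CCL24 (-3.33), IGFBP5 (-3.24) and L1CAM (-2.53). CCL24, a chemokine for eosinophils, had 16, 13 and 17 reads in siCtrl OHT and 0 and 2 reads in siRAD21 OHT libraries at 48 h, so the size of its fall depends on the pseudocount. IGFBP5 had 8.68 and 7.27 eRPKM in siCtrl OHT and 6.85 and 6.4 eRPKM in siRAD21 OHT libraries at 24 h. The groups of IGFBP5 were thus close at 24 h and more than 10 eRPKM apart at 48 h. NXT2, INSIG1, a brake on cholesterol synthesis, and HIST1H2BB had nearly the same fold change at both times, with differences of 0.18, 0.00 and -0.05.

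Genes that answered to OHT alone were taken from the siCtrl libraries at 24 h, none of which enters the means compared at 48 h. These libraries do enter the estimate of the spread that all groups share, so the calls are not fully independent. There, 1299 genes were called (8.66%). Of 546 genes raised by OHT (3.64%), 16.8% were called higher and 8.06% lower by RAD21 silencing with OHT at 48 h, with a median of 0.12. Of 753 genes lowered by OHT (5.02%), 15.5% were called higher and 24.6% lower, with a median of -0.13. Without OHT, 17.9% of the raised genes were called higher and 19.8% lower, and 26.3% and 20.3% of the lowered genes. With OHT, the share closest to that of all genes tested was that of raised genes called lower (8.06%, against 7.2%), and the farthest was that of lowered genes called lower.

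**Figure D5:**
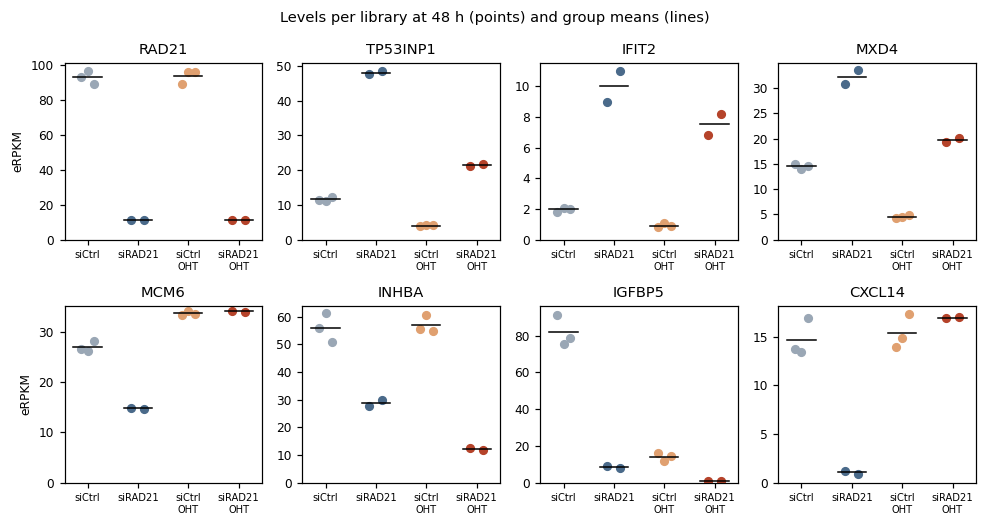
Levels in eRPKM of 8 genes in every library at 48 h, with lines at the group means, on axes that start at 0. RAD21 is near 11 eRPKM in all siRAD21 libraries, TP53INP1, IFIT2 and MXD4 are higher with siRAD21 under both conditions, MCM6 and CXCL14 are lower with siRAD21 without OHT alone, and INHBA and IGFBP5 are lowest in siRAD21 OHT cells.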

How the data were processed

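RNA-seq of U2OS-MycER cells was analysed from 1 table of eRPKM values for 23399 genes. Per the labels and the methods of the study, total RNA was freed of ribosomal RNA, and the authors masked bases of low quality, used TopHat2 for alignment on hg19 (2.0.8 in the processing notes of the submitters, which also name SAMtools and featureCounts 1.4.5) and removed PCR duplicates. The deposited values are RPKM over exons, named eRPKM by the authors; they are not counts.

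Groups were taken from the labels, and every column could be assigned. Whole reads were recovered for 21568 genes as multiples of what 1 read is worth (within 0.05 reads), and they make up 99.978 to 99.985% of each depth, 9647501 to 12678599 reads per library. These reads gave the depth, the check of library pairs and the alternative with voom. Read counts cover counting error only.

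Tests used limma 3.58.1 (R 4.3.3) and a model of 8 group means on log2(eRPKM + 0.5), a variance trend and no block, over 14993 genes with a mean of at least 1 eRPKM, with Benjamini-Hochberg adjustment in each comparison and thresholds of adjusted p below 0.05 and log2 fold change past 0.5. The 2 siRAD21 OHT libraries at 48 h were averaged. The study used the same thresholds in a test on read counts, which the deposited values do not allow as the main test. All groups share 1 estimate of the spread (9 residual degrees of freedom). The procedure was run on simulated data in which the 2 averaged libraries shared 1 draw of variation and no duplicates were removed. That run cannot check the averaging or the effect of duplicate removal.

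Members, the 32 gene lists and the alternatives were chosen with earlier results of these data known. Lists are described by counts and medians, with no test. Named genes are RAD21, MYC, cohesin, MCM, CDKN1A and MDM2 genes, the 10 largest rises and falls among the 1579 called genes with no overlap and at least 5 eRPKM in 1 group, the 5 and 3 largest interaction and time differences in each direction, and the 4 largest called changes of each list. Positions, promoters and exons are from GENCODE on GRCh37 (the build of hg19), which holds 22376 symbols of the table, 1222 of them through older symbols. Figures were drawn with matplotlib 3.10.9 under Python 3.11.15, and tables were made with numpy 2.4.6 and pandas 2.3.3. Alternatives were other pseudocounts, filters, scalings, variance models, thresholds and sets of libraries, a replicate block, and, chosen after seeing the data, voom on recovered reads, undoing the removal of duplicates, and removing trends on GC content and length. Binding data and other experiments of the study were not analysed here. One gene of the repair list is among the named genes that are not reported here.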

Additional observations from a re-analysis of the deposited data

Results flagged for a closer look

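The difference between the siRAD21 effects at 48 h with and without OHT passed the test for 825 genes, and the difference between 48 h and 24 h under OHT for 651 genes (limma with Benjamini-Hochberg adjustment). Of the 137 genes named by rule, 39 had a called difference with OHT and 59 a called difference between the times, against 5.5% and 4.34% of all genes tested. The rule picks genes by these same differences and by the 48 h effect that enters both, so these counts follow in part from the choice. On the log2 scale the largest differences with OHT were those of CXCL14 (3.39), RGS16 (2.59), DRD1 (2.17), LPL (2.10) and MFSD2A (2.09) on the positive side. On the negative side they were those of the microRNA rows MIR554 (-2.85), MIR2053 (-2.62), MIR5702 (-2.09), MIR3936 (-1.86) and MIR196A1 (-1.83). Between the times they were those of IFIT2 (2.69), INSL4 (2.14), MMP3 (2.00), CCL24 (-3.33), IGFBP5 (-3.24) and L1CAM (-2.53). The part of read number in the microRNA rows was not tested. No group had the 4 libraries needed to look for a single library far from the others.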

How the results depend on the processing

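The 2249 genes called under OHT at 48 h became 1470 with a minimum of 5 eRPKM, where fewer genes were tested, 4959 with no fold change threshold and 539 past a log2 fold change of 1, and 2220 to 2364 when 1 library was left out. Without OHT the same settings gave 2289, 8501, 970 and 3372 to 3707, and at 24 h 607, 2798, 131 and 819 to 846. The 825 interaction genes became 518 when the 48 h groups alone were fitted (fewer samples), 1486 with no fold change threshold, 175 past 1, and 560 to 975 with 1 library left out. The 651 genes with a difference between times became 988 with voom on recovered reads (chosen after seeing the data, the cause was not tested), 1001 with no fold change threshold, 155 past 1, and 423 to 742 with 1 library left out. Of the list members, 181 were called, 364 with no fold change threshold, 47 past 1, and 179 to 185 with 1 library left out. RAD21 stayed called, at -3.06 to -3.00 with 1 library left out.

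With a replicate block and both siRAD21 OHT libraries as replicates, counts were 2476 under OHT, 3540 without it, 1200 for the interaction, 1007 at 24 h and 974 for the difference between times, and RAD21 was at -3.03. Same-numbered libraries of siCtrl OHT and siRAD21 OHT at 48 h deviated together at r = -0.026 and 0.032. The siRAD21 OHT libraries differed by about their sampling noise, so this check cannot show whether the numbers pair them. The main model used no pairing. At 48 h, the same check between siCtrl OHT and siCtrl gave 0.258, 0.13 and 0.157, between siCtrl and siRAD21 0.099 and 0.146, and between siCtrl OHT and siRAD21 0.168 and 0.111. These groups enter the interaction, whose 1200 calls with the block were 514 positive and 686 negative, against 408 and 417 without it, and 824 of the 825 were kept. With both libraries as replicates and no block, the counts were 2431, 3559, 1094, 970 and 968. Of 2825 values of the named genes under these alternatives, 2699 kept their call and direction, 100 lost the call and 22 gained it. The sign turned in 4: MIR2053 went from -0.20 to 1.28 without siRAD21 OHT replicate 2 (and to -1.69 without replicate 1) and to 0.25 with voom, and MCM6 from 0.02 to -0.00 with median centring and with the GC and length trend removed, and the cause was not tested. The microRNA rows named above held 0 to 26 reads per library. The lone averaged sample is assumed to vary like the other groups.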
